A study of Mus musculus with 10 samples.

Results

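The genes described here are the Sox and Fox transcription factor genes of the mouse, chosen by symbol as every protein-coding gene named Sox or Fox (subgroups a to s) followed by a number. They were 63 of 21938 protein-coding genes, namely 19 Sox and 44 Fox genes. The question was which of them carried accessible chromatin at a start site, and which had accessible sites further away, in fibroblasts. SOX proteins bind DNA through an HMG box, which inserts into the minor groove and bends the helix, and the groups SoxB1 to SoxH differ in the rest of the protein. FOX proteins bind through the forkhead or winged helix domain. Both families set cell identity in the embryo, several members open closed chromatin ahead of other factors, and many members are active in a few lineages only.

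Accessibility was measured by ATAC-seq, in which the transposase Tn5 inserts sequencing adapters into open DNA. The cells were iMEF, immortalised mouse embryo fibroblasts, and came from a single clone, NG3, obtained by limiting dilution, so that replicates are not separate clones. In all groups exon 4 of endogenous Ash2l had been deleted, and growth rested on a lentiviral fusion of human ASH2L with an N-terminal FKBP12 F36V tag. The 10 libraries came from untreated cells and from cells given the degrader dTAG-13 for 30 min, 4 h, 8 h or 24 h, with 2 replicates in each of the 5 groups. The list analysed here gives only the chromosome, start and end of each of 153924 sites over all libraries together. It therefore holds no depth, no value per library and no treatment effect, and a site in it may have been open at a single time point. No replicate error exists for the counts below, which are counts in 1 list, and they are read beside the same counts over all protein-coding genes.

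Of the sites, 153682 lay on the chromosomes. A promoter site of a gene is a site that reaches within 1 kb of a start site of any of its annotated transcripts, and a distal site is one that lies over 1 kb from every annotated start site of every gene. By these definitions 26427 sites were at start sites and 127255 were distal. All 10 fibroblast markers had a promoter site, among them Col1a2 and Col3a1, which encode fibrillar collagen chains. The share over all protein-coding genes was 70.8%, so that such small lists are read against a high background. Promoter sites were also listed for 4 of 5 epithelial, 2 of 5 blood, 4 of 5 endothelial and 5 of 5 neural markers. A promoter site in this list thus does not by itself mark the lineage of the cells, and gene activity was not measured.

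Because many start sites of these families are rich in CpG, the sequences just before the start sites are given first for 9 genes. They contrast genes with and without an accessible promoter. Each is the 120 bases before the more upstream of the GENCODE and RefSeq starts (GRCm38), 5′ to 3′ on the strand of the gene, with CpG dinucleotides in capitals. The RefSeq start was the more upstream one in Sox2 (position 34649995, GENCODE 34650405), Sox9 (112782210, GENCODE 112782224) and Foxp1 (99522746, GENCODE 99522721, minus strand). In the first set, the promoters of Sox4, Sox9, Sox2, Foxd1 and Foxp1, all 120 bases lay inside an accessible site.
Sox4, chr13:28953714-28953833, minus strand: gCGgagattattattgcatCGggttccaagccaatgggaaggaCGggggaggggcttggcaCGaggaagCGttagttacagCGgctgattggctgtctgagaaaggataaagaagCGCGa
Sox9, chr11:112782090-112782209, plus strand: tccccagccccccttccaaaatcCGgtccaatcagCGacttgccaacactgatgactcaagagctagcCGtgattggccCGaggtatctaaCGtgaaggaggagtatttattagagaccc
Sox2, chr3:34649875-34649994, plus strand: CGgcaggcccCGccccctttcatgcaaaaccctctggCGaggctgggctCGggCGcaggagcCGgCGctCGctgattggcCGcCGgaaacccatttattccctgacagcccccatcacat
Foxd1, chr13:98354122-98354241, plus strand: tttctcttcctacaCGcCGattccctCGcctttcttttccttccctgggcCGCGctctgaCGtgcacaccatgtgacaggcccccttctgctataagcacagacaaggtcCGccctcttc
Foxp1, chr6:99522747-99522866, minus strand: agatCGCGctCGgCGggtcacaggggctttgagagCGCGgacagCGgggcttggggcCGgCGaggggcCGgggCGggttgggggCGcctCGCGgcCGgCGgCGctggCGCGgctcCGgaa
The second set comes from close relatives that had no accessible site within 1 kb of any start.
Sox1, chr8:12395175-12395294, plus strand: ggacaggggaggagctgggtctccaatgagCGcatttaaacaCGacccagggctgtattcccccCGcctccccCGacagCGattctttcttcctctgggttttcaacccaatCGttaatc
Sox3, chrX:60893431-60893550, minus strand: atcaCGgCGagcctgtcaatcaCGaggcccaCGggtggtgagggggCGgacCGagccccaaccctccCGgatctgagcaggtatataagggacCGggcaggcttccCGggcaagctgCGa
Foxd3, chr4:99656179-99656298, plus strand: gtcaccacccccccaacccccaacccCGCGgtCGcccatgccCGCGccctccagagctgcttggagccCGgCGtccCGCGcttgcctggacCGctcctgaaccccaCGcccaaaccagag
Foxp4, chr17:47924646-47924765, minus strand: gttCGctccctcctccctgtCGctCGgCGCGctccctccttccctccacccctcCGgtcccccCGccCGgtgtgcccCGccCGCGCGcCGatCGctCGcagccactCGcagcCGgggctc
The number of CpG dinucleotides in the 120 bases was 8 for Sox4, 5 for Sox9, 10 for Sox2, 7 for Foxd1 and 20 for Foxp1. It was 6 for Sox1, 10 for Sox3, 11 for Foxd3 and 17 for Foxp4. The ranges of both sets overlapped, and Foxp4, without a site, carried more CpG there than each shown gene with a site except Foxp1.

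A promoter site was found for 51 of the 63 genes (81.0%). The share over all protein-coding genes was 70.8%. It was 16 of 19 for Sox and 35 of 44 for Fox genes. Among other developmental regulators, 37 of 39 Hox genes (94.9%) and 21 of 25 Nr-named nuclear receptor genes (84%) had one. CpG content differed between the families and the genome. A start was called CpG-rich when a window of 500 bp within 1 kb of it had a GC content of at least 0.55 and a ratio of observed to expected CpG of at least 0.65. This held for 57 of the 63 genes (90.5%) and for 59.5% of all protein-coding genes. Within the CpG-rich class, 50 of 57 Sox and Fox genes had a promoter site (87.7%), beside 95.8% of 13050 protein-coding genes. Within the CpG-poor class, 1 of 6 had one, beside 34.1% of 8888, and 6 genes are too few to read a difference. The share was thus above the background over all genes and below it within each class, as the plot by CpG class shows. A promoter site was counted at any start. The median number of starts was 1 in the CpG-rich Sox and Fox genes and 5 in CpG-rich protein-coding genes. Among genes with 1 start, 27 of 34 Sox and Fox genes (79.4%) had a promoter site, beside 42.7% of 4882. With several starts it was 24 of 29 (82.8%), beside 78.8% of 17056. The CpG classes were not split by the number of starts, so its part in these shares was not tested. The CpG-poor gene with a site was Foxs1, a forkhead gene of pericytes and neural crest derivatives. The 5 others were Foxh1, Foxi1, Foxn1, Foxq1 and Foxr2.

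**Figure D1:**
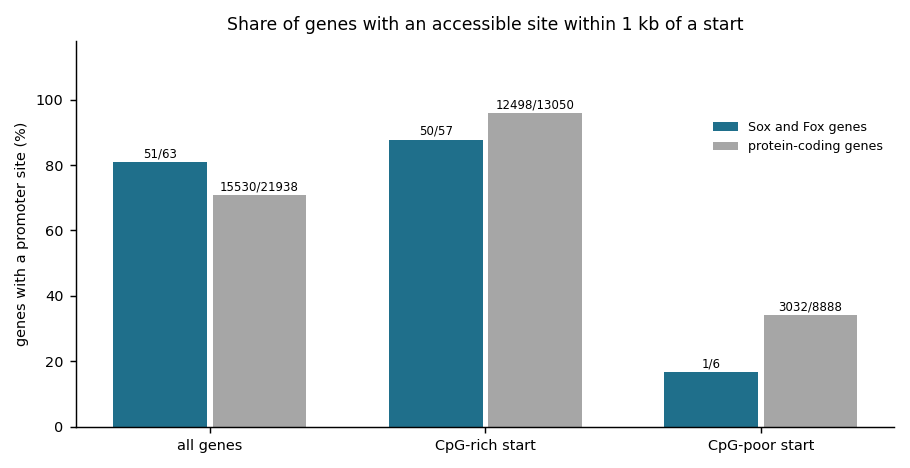
Share of genes with an accessible site within 1 kb of a start site (y axis, percent) for the Sox and Fox genes (blue) and for protein-coding genes (grey), over all genes and by the CpG class of the start. Numbers above the bars are genes with a site over genes in the class; the blue bar is the taller one only over all genes (51 of 63).

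The 12 genes with no promoter site were Sox1, Sox3, Sox17, Foxd3, Foxh1, Foxi1, Foxl1, Foxn1, Foxp4, Foxq1, Foxr1 and Foxr2. The genes of the groups FoxH, FoxQ and FoxR were all among them. In 6 of the 12 the nearest site began between 1 and 2 kb from a start, so that they lay just outside the window. It was 1009 bp away at Sox17, 1081 bp at Foxr1, 1158 bp at Foxh1, 1630 bp at Sox1, 1657 bp at Foxl1 and 1781 bp at Foxq1. The site at Sox17 lay over its coding exon, and the one at Foxr1 in an intron. The sites at Foxh1, Sox1 and Foxq1 were within 1 kb of a start of a neighbouring gene (Ppp1r16a, Gm25239 and A530084C06Rik). Those at Sox1 and Foxq1 also lay within the single exon of Sox1 and of Foxq1 itself. Of the members just inside the window, the closest to its edge were Foxb2, whose nearest site lay 364 bp from the start, and Foxn4, whose site lay 196 bp away.

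The other 6 genes without a promoter site had their nearest site further off. It was 3117 bp away at Foxn1, the thymic epithelial regulator mutated in nude mice, and 4815 bp at Foxi1, which directs ionocytes and intercalated cells. At Foxr2 it was 12631 bp away and at Foxd3, a regulator of neural crest and pluripotent cells, 35431 bp. Sox3, a SoxB1 gene of the neural progenitors, had its nearest site 153235 bp away and so no site of any kind within 100 kb. Foxp4 differed from these in that its start is among the richest in CpG, with 110 CpG dinucleotides in the 1000 bp around its 5′ end. The median over the 63 genes was 76. None of its 3 groups of start sites had a site, and the nearest lay 4821 bp away. The choice of annotation matters for 3 of the 12, since Foxh1, Foxn1 and Foxq1 had a promoter site when start sites of RefSeq transcripts were used.

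Among the SoxB1 genes, which keep neural progenitors and pluripotent cells undifferentiated, Sox2 was the one with a promoter site, of 1640 bp (chr3:34649681-34651320) and over the start and coding exon. Sox2 had 5 distal sites within 100 kb, while Sox1 and Sox3 had 0. At Sox1, however, 5 sites within 100 kb were left out as they lay within 1 kb of a start of another gene. Sox3 had 0 such sites. The 3 starts were alike in CpG content, with 84 in Sox1, 97 in Sox2 and 96 in Sox3 in 1000 bp. The SoxB2 genes, which counteract SoxB1 in neurogenesis, both had promoter sites. That of Sox21 measured 1407 bp. Sox14 had 2 narrow ones of 207 and 199 bp, and its widest promoter site was the narrowest among the 51 genes.

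The SoxC genes Sox4, Sox11 and Sox12 act in progenitors of nerve and mesenchyme. Each of them had a single wide promoter site, of 2165, 2689 and 3158 bp, with 12, 15 and 17 distal sites. The median for the widest promoter site of a protein-coding gene was 1412 bp, so that all of them lay above it. The SoxE genes direct the neural crest, cartilage and glia. Sox8 had a promoter site of 1692 bp and 18 distal sites. Sox9, the master regulator of cartilage, had 2 promoter sites, of 1153 bp over the start (chr11:112781955-112783107) and 538 bp upstream, and 7 distal sites. Sox10, which specifies glia and melanocytes, had a promoter site of 1509 bp and 25 distal sites. Its density of 12.5 distal sites per 100 kb of window was the third highest of the families. Sox9 and Sox10 thus stood apart in opposite directions from the median of 13 distal sites.

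Among the SoxF genes, which act in endothelium, Sox7 had a promoter site of 992 bp and 16 distal sites, and Sox18 had a promoter site of 1493 bp and 6 distal sites. Sox17, also an endoderm gene, had no promoter site and 3 distal sites. The remaining Sox15 and Sox30, the second of which is a testis gene, had promoter sites of 1006 and 1144 bp. Their distal sites numbered 12 and 16.

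The FoxA genes open chromatin in endoderm and liver. All of them had promoter sites, of 1925 bp in Foxa1, 1252 bp in Foxa2 (with 2 further sites) and 1911 bp in Foxa3. The site of Foxa3 was also within 1 kb of a start of Sympk and reached 1802 bp upstream of the Foxa3 start but 108 bp downstream, so that it cannot be assigned to either gene. The FoxC genes shape mesoderm, vessels and skeleton. Foxc1 had a promoter site of 1912 bp with 27 distal sites, and Foxc2 a promoter site of 3168 bp with 22. The FoxF genes, which act in the mesenchyme of lung and gut, had promoter sites of 2042 bp (Foxf1) and 2029 bp (Foxf2), with 22 and 20 distal sites. FoxC and FoxF thus joined wide promoter sites with distal counts above the upper quartile of 18 for protein-coding genes.

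In the FoxD group, Foxd1, which marks stromal progenitors of the kidney, had a promoter site of 2038 bp (chr13:98353901-98355938) and 13 distal sites. The widest distal site near any of the 63 genes, of 2692 bp, was 1 of these and lay 45028 bp from the start. Foxd2 had a promoter site of 2631 bp and 12 distal sites. Foxd4 had 8 distal sites and a promoter site of 2004 bp that began 122 bp past the start, within its single exon. Foxd3 had 2 distal sites, of 203 and 957 bp.

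The FoxK genes, which repress autophagy and steer glucose use, are expressed broadly. Foxk1 had a promoter site of 1839 bp and 27 distal sites, with 13.5 per 100 kb of window, which together with Foxc1 was the highest density. Foxk2 had sites at each of its 3 groups of start sites and 14 distal sites. Foxm1, the activator of mitotic genes, had 2 promoter sites at the first 2 of 5 groups of start sites and 19 distal sites. Its site of 1532 bp at the first start was also within 1 kb of a start of Rhno1. The FoxO genes respond to insulin and stress. Foxo3 had the widest promoter site of all 63 genes, of 3508 bp, with 16 distal sites. Foxo1 had a promoter site of 3130 bp with 21 distal sites, Foxo6 one of 1455 bp with 24, and Foxo4 one of 1896 bp with 2. Foxo4 is X-linked and had its nearest distal site 74699 bp away.

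The FoxP genes act in lung, brain, heart and lymphocytes. Foxp1 and Foxp2 had wide promoter sites of 2802 and 2308 bp. Foxp3, the regulator of regulatory T cells, had 1 promoter site of 1573 bp and 7 distal sites. That site lay at the most upstream of 3 groups of start sites, which is also within 1 kb of a start of Ppp1r3f, and the groups downstream, between positions 7579567 and 7586355 of chromosome X, had none. With RefSeq start sites in place of GENCODE ones, Foxp3 had no promoter site.

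The remaining Fox genes with a promoter site belong to smaller groups. Foxe1, a thyroid gene, had a promoter site of 2062 bp and 17 distal sites, and Foxe3, a gene of the lens, had 958 bp and 13. Foxb2 had 2 promoter sites, the wider of 1165 bp, and 11 distal sites. In the FoxI group, Foxi2 had a narrow promoter site of 445 bp with 13 distal sites and Foxi3 one of 1151 bp with 11, while Foxi1 had 2 distal sites. Foxj1, the regulator of motile cilia, had a promoter site of 1080 bp and 17 distal sites. Foxj2 and Foxj3 had 1560 and 1872 bp with 22 and 18 distal sites, and the first of the 3 groups of Foxj3 starts had no site. In the FoxN group, Foxn2 had a promoter site of 2280 bp with 9 distal sites, Foxn3 one of 2533 bp with 28, and Foxn4, a gene of retinal progenitors, one of 612 bp with 10. Foxn1 had 17 distal sites and no promoter site. Foxl2 had 12 distal sites, as did Foxs1, which had 3 promoter sites, the widest of 936 bp. The widest promoter sites in these groups ranged from 445 bp in Foxi2 to 2818 bp in Foxl2.

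**Figure D2:**
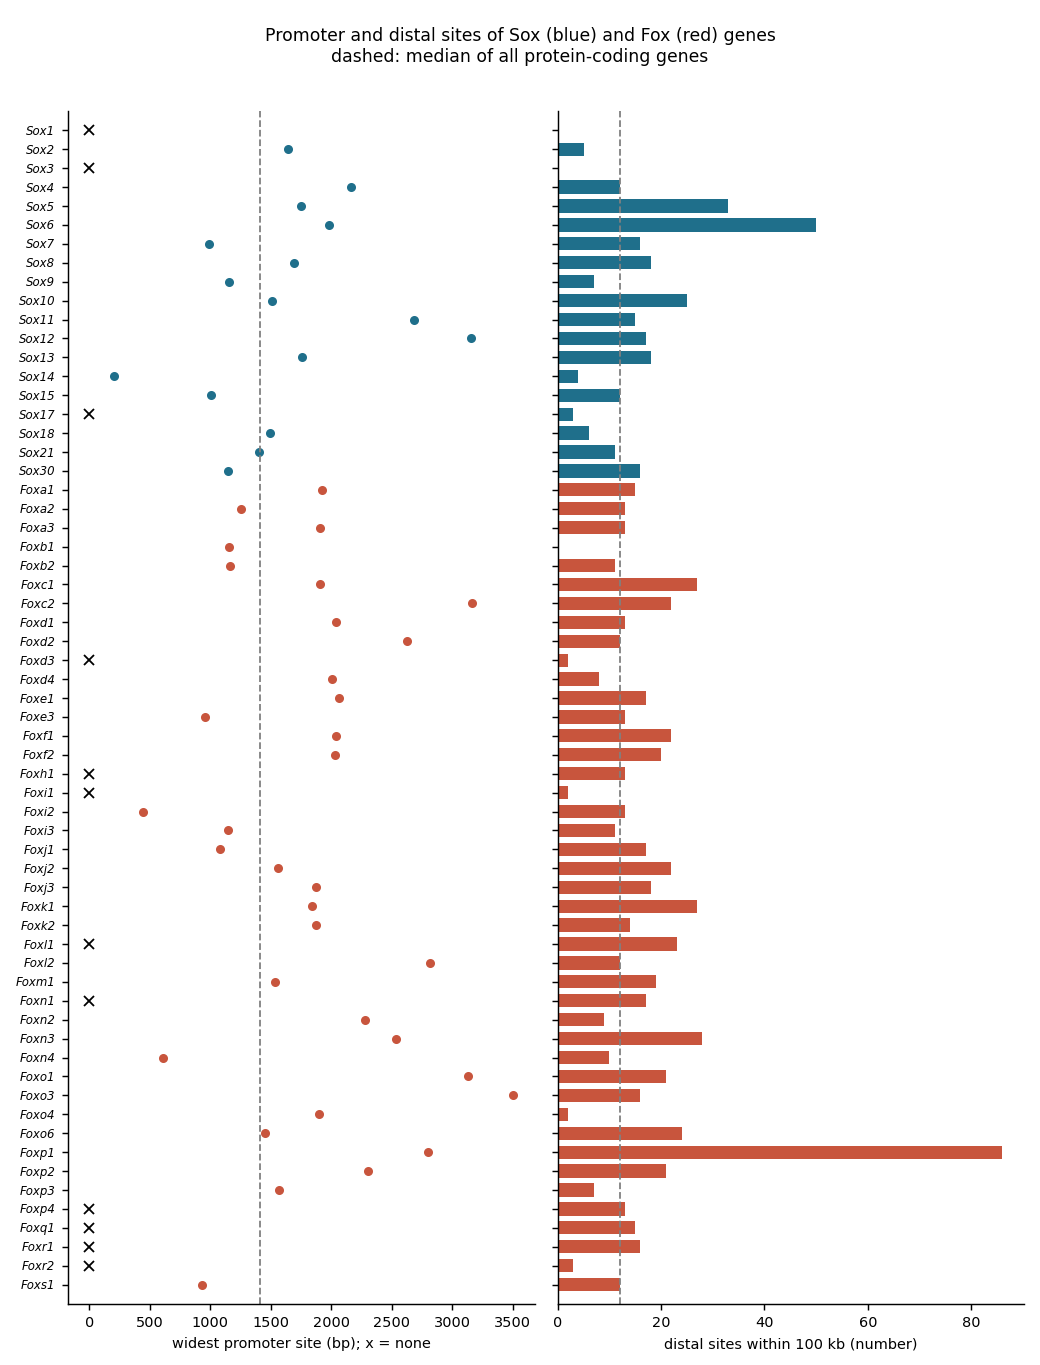
Width of the widest promoter site (left, bp) and number of distal sites within 100 kb (right) for the Sox (blue) and Fox (red) genes, with crosses for genes with no promoter site and dashed lines at the medians of all protein-coding genes (1412 bp and 12). Foxp1 stands furthest to the right with 86 distal sites, and Foxo3 has the widest promoter site with 3508 bp.

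The widest promoter site per gene had a median of 1755 bp over the 51 genes, against 1412 bp over protein-coding genes with a promoter site. It measured 2 kb or more in 17 of 51 genes (33.3%), and 13.9% of protein-coding genes passed this width. By family, 3 of 16 Sox genes (18.8%), namely Sox4, Sox11 and Sox12 of the SoxC group, and 14 of 35 Fox genes (40%) passed 2 kb. This difference between the 2 families was not tested. Wide sites were not particular to them, since 7 of 21 Nr-named nuclear receptor genes (33.3%) passed 2 kb, with a median of 1775 bp. For Hox genes it was 3 of 37 (8.11%). The 5 widest belonged to Foxo3, Foxc2, Sox12, Foxo1 and Foxl2, the ovarian regulator, with 2818 bp. In 42 of the 51 genes the widest site covered a start site, and in 37 it reached further downstream than upstream, as the plot around the start shows. The 37 include sites that lay wholly downstream of the start, as at Foxb1 and Foxd4. Neither count was made over all protein-coding genes, so neither can be called particular to the families. Where several starts lay inside a site, the extent was taken from the start at the lowest genomic position. That is the most upstream start on the plus strand and the most downstream one on the minus strand, so the count of 37 may depend on this choice. In Foxp1, on the minus strand, this was the most downstream of 4 starts inside the site. Its extents of 2687 bp upstream and 114 bp downstream rest on that choice. That site also spans a second group of Foxp1 starts. Over all 83 distinct promoter sites of the families the median width was 1391 bp (95% interval from order statistics 1151 to 1573), beside 1180.5 bp (1169 to 1191) for the promoter sites of protein-coding genes. The background median lay within the interval of the families, so that no difference in width was detectable over these 83 sites. These intervals cover the sampling of sites only, and sites of 1 gene are not independent. Of the promoter sites 77 were near no start of another protein-coding gene. Every promoter site was shared with another protein-coding gene in Foxa3 (with Sympk), Foxj3 (with Frg2f1) and Foxp3 (with Ppp1r3f).

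**Figure D3:**
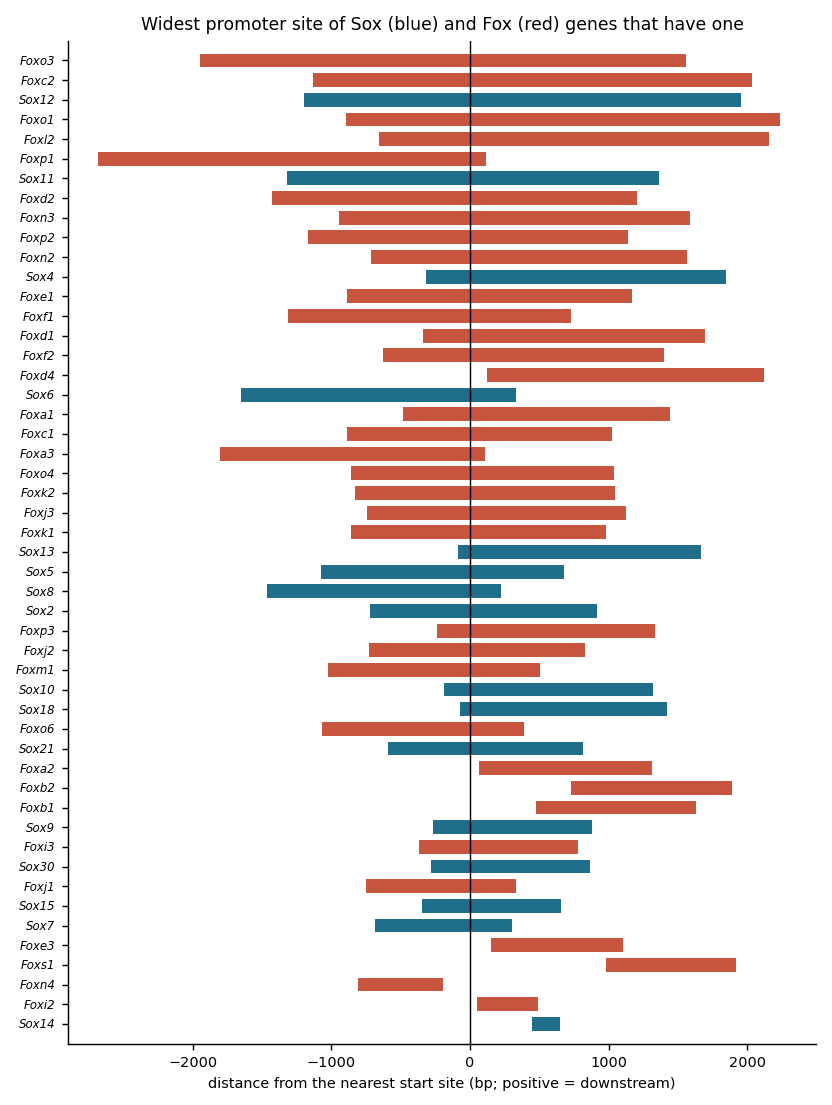
Extent of the widest promoter site of the Sox and Fox genes that have one, in bp from the nearest start site on the strand of the gene (x axis, positive is downstream), sorted by width, with Sox genes in blue and Fox genes in red. Where several starts lie inside a site, 0 is the start at the lowest genomic position. Most bars cross 0, and the widest is that of Foxo3 with 3508 bp.

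Distal sites within 100 kb of a start were found for 60 of the 63 genes (95.2%). The share over all protein-coding genes was 91.8%, so that the families were close to the background. The genes with none were Sox1, Sox3 and Foxb1. This depends on the rule that a distal site lies away from starts of noncoding genes too. When only starts of protein-coding genes set the 1 kb limit, 62 of the 63 genes had a distal site. The share over all protein-coding genes was not computed under that setting. Foxb1, a gene of the hypothalamus and spinal cord, had 2 promoter sites, of 1156 and 220 bp. The median was 13 distal sites per gene (quartiles 10 and 18.5) in the families, 12 (7 and 18) over protein-coding genes, 15 over Hox genes and 13 over nuclear receptor genes. A total of 16 genes were above the upper quartile of protein-coding genes, which 22.5% of those genes exceeded, and 9 had fewer than 5, as did 18.1%. The nearest distal site lay within 10 kb of a start in 52 genes, a count not made over all protein-coding genes. Among genes with a distal site, the median distance to the nearest was 4177.5 bp in the families and 5184 bp over protein-coding genes. The 51 genes with a promoter site had a median of 15 distal sites, and the 12 without had a median of 8. The same medians over protein-coding genes were 14 and 5.

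The 4 X-linked genes Foxo4, Foxp3, Foxr2 and Sox3 had 2, 7, 3 and 0 distal sites. The median over 948 X-linked protein-coding genes was 5, and over autosomal ones 13. A promoter site was found for 2 of the 4, where 49.8% of X-linked protein-coding genes had one. Low counts on this chromosome were thus shared with other genes. Without these 4 genes, 49 of 59 had a promoter site and the median was 15 distal sites.

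**Figure D4:**
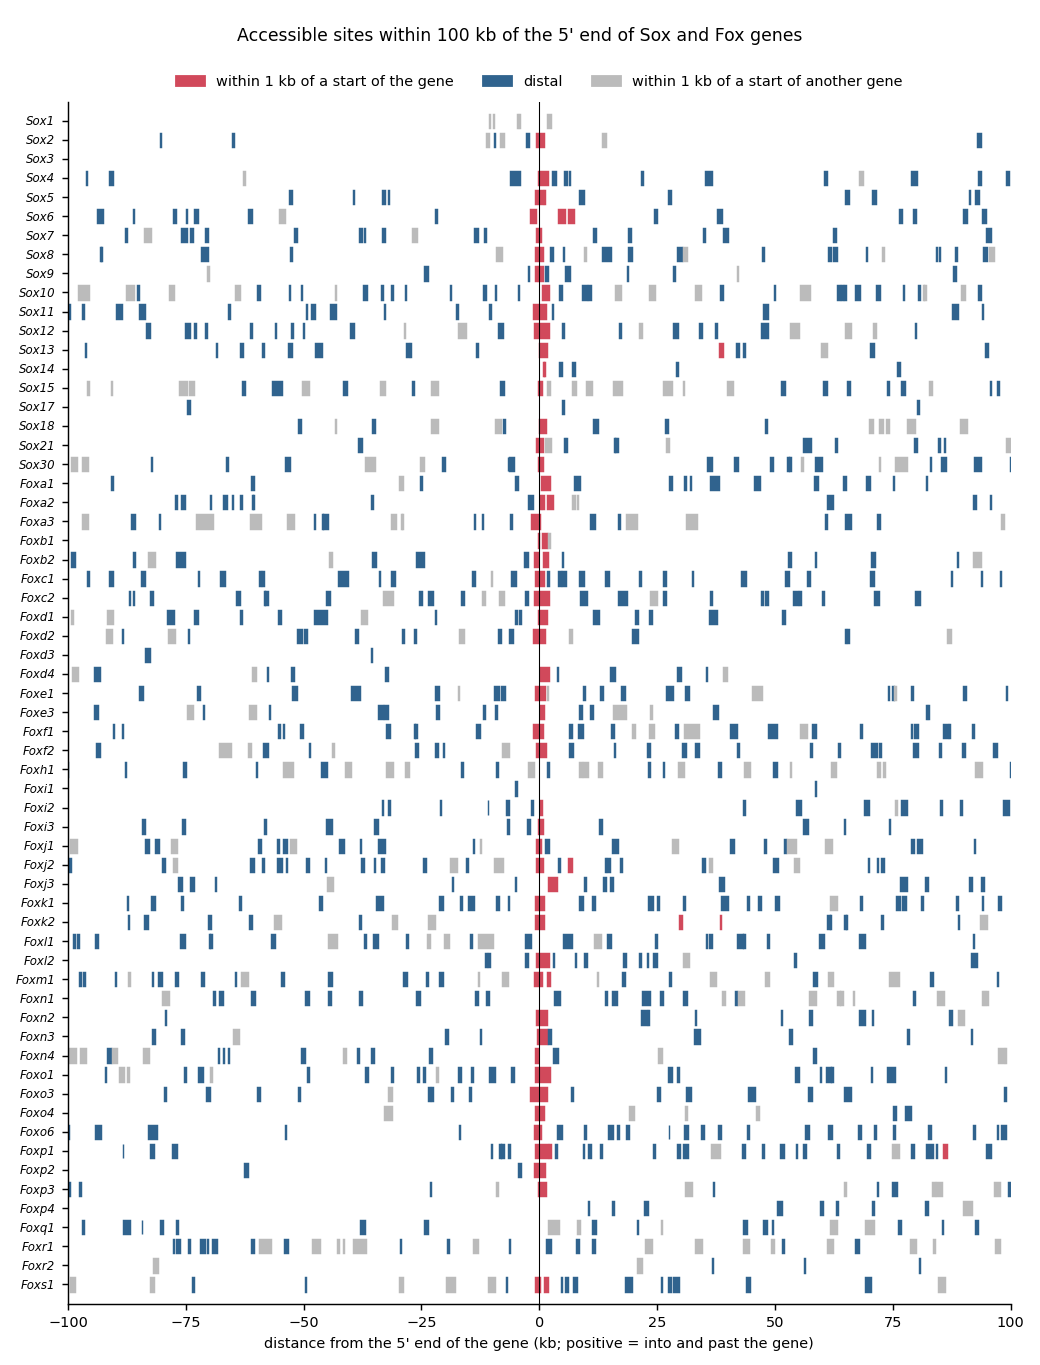
Accessible sites within 100 kb of the 5′ end of the Sox and Fox genes (x axis, kb on the strand of the gene; bars drawn at their width), coloured red within 1 kb of a start of that gene, blue when distal and grey within 1 kb of a start of another gene. The row of Sox3 is empty, and that of Foxd3 holds 2 distal sites and no red bar.

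Counts over 100 kb of every start favour long genes with many starts. The window of Foxp1 spanned 793 kb and held 86 distal sites, of which 70 lay in the gene. Per 100 kb of window this was 10.8, against a median of 6.45 in the families and 5.76 over protein-coding genes. Sox6, which acts with Sox5 in cartilage and in the erythroid lineage, had 50 (43 in the gene, 7.80 per 100 kb). Sox5 had 33 (29 in the gene, 5.45 per 100 kb) and Foxn3 28 (24 in the gene, 5.93 per 100 kb). Foxp2, a speech and motor circuit gene, had 21, of which 19 lay in the gene, and 3.53 per 100 kb. Per length, therefore, Foxp1 and Sox6 stayed above the median of protein-coding genes, and Foxp2 and Sox5 lay below it. The highest density, of 13.5 per 100 kb, was shared by Foxc1, a gene of 5.8 kb, and Foxk1, a gene of 60.5 kb, with 27 sites each. The 10 genes with the most distal sites were Foxp1, Sox6, Sox5, Foxn3, Foxc1, Foxk1, Sox10, Foxo6, Foxl1 and, at 22 each, Foxc2, Foxf1 and Foxj2. Foxl1 is a gene of the mesenchyme that feeds the gut stem cells, and its 23 distal sites stood beside the absence of a promoter site.

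The long genes also showed which of their starts were accessible. Start sites within 1 kb of each other were joined into groups. Of 117 such groups in the 63 genes 73 had a site. In 12 of the 16 genes with several groups the most upstream 1 had a site. Start groups of all protein-coding genes were not counted, so these shares have no background and cannot be called particular to the families. Foxp1 had sites at 7 of 13 groups, Sox6 at 5 of 9, Foxn3 at 4 of 7, Foxp2 at 4 of 7 and Sox5 at 2 of 4. In each of these genes the first group had a site, and the last group had none in Foxp1, Foxn3, Foxp2 and Sox5. In Sox6 the last group, at position 115597896 of chromosome 7, had a site of 1438 bp. Sox13, the third SoxD gene, had sites at 2 of 3 groups, a promoter site of 1755 bp and 18 distal sites.

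**Figure D5:**
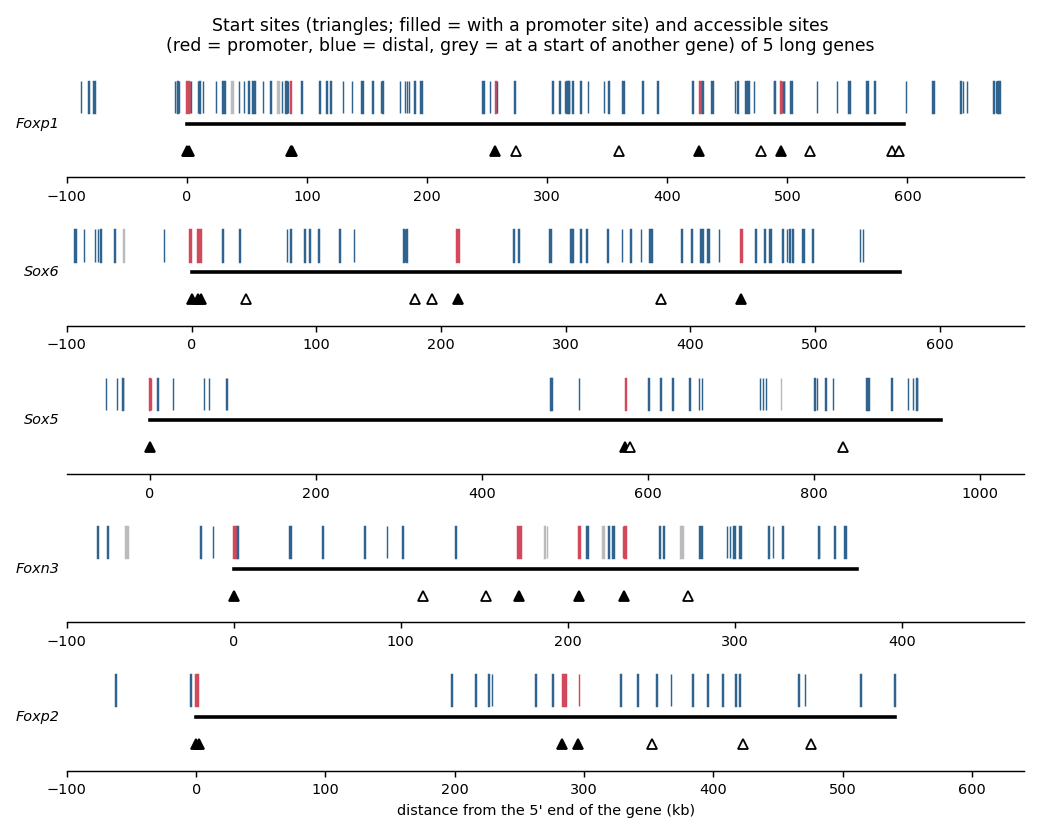
Foxp1, Sox6, Sox5, Foxn3 and Foxp2 drawn to scale from the 5′ end (x axis, kb), with the gene as a black line, groups of start sites as triangles (filled where a site lies within 1 kb) and accessible sites as bars above (red promoter, blue distal, grey at a start of another gene). Foxp1 has 7 filled triangles of 13, and its distal sites run along the whole gene.

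Several genes of the Fox family are neighbours and shared distal sites. The 63 genes had 977 gene and site pairs but 911 distinct distal sites, since 46 sites were within 100 kb of 2 or more members. On chromosome 8, 20 sites were shared by Foxf1, Foxc2 and Foxl1, and 2 more by Foxc2 and Foxl1. On chromosome 13, 9 were shared by Foxq1 and Foxf2 and 3 by Foxf2 and Foxc1. On chromosome 4, 12 were shared by Foxd2 and Foxe3. The counts of these genes are therefore not independent of each other, and nearness does not assign a site to a gene. Of the pairs, 726 had the middle of the site outside the gene, 236 in an intron, 9 in an untranslated exon and 6 in a coding exon.

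The distal sites near the families were 551 bp wide at the median, against 565 bp for all distal sites. They were searched for 3 short motifs in the 200 bp at their middle, on both strands. The AP-1 motif, bound by FOS and JUN, was TGACTCA or TGAGTCA, which are reverse complements, the forkhead motif was TGTTTAC, and the SOX motif was AACAATG or AACAAAG. An AP-1 match was present in 135 of 911 sites (14.8%, 95% exact interval 12.6 to 17.3), beside 16.3% of all distal sites. A forkhead match was present in 23 sites (2.52%, 1.61 to 3.76), beside 2.94%. A SOX match was present in 88 sites (9.66%, 7.82 to 11.8), beside 9.39%. Each background share lay within the interval, so that no difference from other distal sites was detectable for these motifs with this number of sites. The intervals cover the sampling of sites only.

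For each motif, the match nearest a start site was taken in each gene of the SoxB1 to SoxF, FoxA, FoxC, FoxD, FoxF, FoxK, FoxM, FoxO and FoxP groups, and 8 windows are shown from the 5 genes with the nearest matches. They were picked to show different genes and are not in each case the nearest of the 5. They are given with 25 bases of genome on either side, on the plus strand of GRCm38, the match in capitals, and outside every annotated exon. A match is a description of the letters and does not show that a factor was bound. Forkhead letters are shown near Foxp1, Foxf2 and Foxo3, which themselves encode forkhead proteins.
Foxp1, chr6:99439961-99440017: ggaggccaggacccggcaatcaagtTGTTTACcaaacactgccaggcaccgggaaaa
Foxf2, chr13:31632515-31632571: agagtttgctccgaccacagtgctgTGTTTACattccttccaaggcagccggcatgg
Foxo3, chr10:42251439-42251495: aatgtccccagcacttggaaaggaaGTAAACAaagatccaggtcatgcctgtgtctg
The site near Foxp1 measured 1505 bp and lay 2762 bp from the nearest start, inside the gene. That of Foxf2 lay 6413 bp downstream of the start and that of Foxo3 inside the gene, 6603 bp from the nearer of its groups of starts, where the letters read as the reverse complement, GTAAACA. SOX letters are shown for Sox6, the one Sox gene among the 5 closest, and for Foxd1, where they read as the reverse complement.
Sox6, chr7:116000411-116000467: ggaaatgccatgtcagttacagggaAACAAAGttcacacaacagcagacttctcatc
Foxd1, chr13:98349332-98349388: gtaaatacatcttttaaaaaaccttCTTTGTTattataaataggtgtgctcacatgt
AP-1 letters are shown for Foxa1, Foxk1 and Sox11.
Foxa1, chr12:57551688-57551744: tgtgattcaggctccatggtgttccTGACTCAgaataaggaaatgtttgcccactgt
Foxk1, chr5:142392535-142392591: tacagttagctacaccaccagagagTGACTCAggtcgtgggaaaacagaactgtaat
Sox11, chr12:27352935-27352991: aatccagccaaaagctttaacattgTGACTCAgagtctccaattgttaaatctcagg
These sites lay 4574 bp (Foxa1), 8518 bp (Foxk1) and 10176 bp (Sox11) upstream of the start. Near Foxp1, which had the most distal sites, 10 of the 86 held an AP-1 match, 4 a forkhead match and 7 a SOX match. Near Foxd1, 6 of 13 held an AP-1 match. In Sox5 it was 9 of 33 and in Sox6 4 of 50, while SOX matches numbered 5 in Sox5 and 8 in Sox6.

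Genes that work with these factors were counted in the same way, beside a background of 70.8% over all protein-coding genes and 95.8% over those with a CpG-rich start. All 16 partners and regulators had a promoter site, from Ctnnb1 and the SMAD genes to the kinases Akt1 and Akt2 that act on FOXO proteins. Of known targets, 4 of 5 for SOX9 had one (not Matn1), 6 of 6 for FOXO, 6 of 6 for FOXM1, 3 of 4 for FOXA (not Alb) and 3 of 4 for SOX2 (not Nanog). The widths at targets ranged from 198 bp at Ttr to 3106 bp at Irs2, an adaptor of the insulin receptor. Lineage genes such as Col2a1 (1882 bp) and Acan (1465 bp), both matrix genes of cartilage, were thus accessible at the start as well as the cell-cycle genes Plk1 (1813 bp) and Ccnb1 (1586 bp). These lists were short and chosen with results of these data known, and no test was made on them.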

How the data were processed

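ATAC-seq was performed on 10 libraries from 5 groups with 2 replicates each. According to the methods and the submitters' processing notes, the authors used Trim Galore for trimming, BWA for alignment to mm10, SAMtools for filtering, Picard for joining replicates and MACS2 for calling narrow peaks. Versions, the peak threshold, any shift of read ends and the joining of peaks across samples were not given in the sources used here, and each could change the number, edges and width of sites. The deposited list holds site positions and no value per library (0 such columns), so depth is unknown and no test between groups was possible.

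Starts were read as counted from 0 and are printed counted from 1. Start sites came from all transcripts of GENCODE vM21 on GRCm38, the build of the list, and sequences from the GRCm38 genome. Promoter sites shared at least 1 bp with the window of 1 kb on both sides of a start. Distal sites lay over 1 kb from every annotated start, and within 100 kb of a start of the gene. All 63 genes entered the counts, and the values of some single genes are not reported here. Named with values were the 10 genes with the most distal sites (and ties), the 5 with the widest promoter site, those without sites, and the SoxB1 to SoxF, FoxA, FoxC, FoxD, FoxF, FoxK, FoxM, FoxO and FoxP groups. The other genes are given by width and distal count after their values were seen. The motif windows shown came from the 5 genes per motif of those groups with a match nearest a start. The members, lists and rules were chosen with earlier results of these data known. Counting was tested on simulated data. Alternatives were other windows, other start sites, merged or wide sites and whole-site motif searches. Python 3.11.15, NumPy 2.4.6, SciPy 1.17.1 and Matplotlib 3.10.9 were used.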

Additional observations from a re-analysis of the deposited data

How the results depend on the processing

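For 8 results (genes with a promoter or a distal site, distal sites per gene and in all, promoter site width and the 3 motif shares), 44 values were computed under other settings. A count was called close within 1.5 times the given one, and a median or share within its 95% interval, by which 33 were close and 11 moved. The counts by CpG class, of wide sites, of start groups, of shared sites, of X-linked genes and of the gene lists were not repeated. Genes with a promoter site numbered between 48 and 57 of 63. Widening the window to 2 kb added Foxh1, Foxl1, Foxq1, Foxr1, Sox1 and Sox17 (57). RefSeq start sites added Foxh1, Foxn1 and Foxq1 and removed Foxp3 (53). Leaving out sites narrower than 619 bp, the median, removed Foxi2, Foxn4 and Sox14 (48). The background over protein-coding genes ranged from 65.5% to 74.0% under these settings and stayed below the share of the families in each. Counts of distal sites scaled with the window. The median per gene was 7 within 50 kb, 28 within 200 kb, 11 when sites had to lie over 3 kb from every start, 7 with wide sites only and, in a setting added after the data were seen, 65 within 500 kb of the 5′ end, where it had been 13. Distinct distal sites numbered 513 within 50 kb, 1630 within 200 kb and 405 with wide sites only. Searching whole sites raised the share with a match to 29.4% for AP-1, 8.89% for forkhead and 25.2% for SOX, beside 31.0%, 9.18% and 25.7% of all distal sites. No paired analysis was possible because libraries have no values of their own here. A site missing from the list may have been below the authors' threshold, which cannot be judged without depth.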

Other observations

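Low counts within 100 kb did not always extend further out. With the window widened to 500 kb around every start site, Sox9 had 65 distal sites, where it had 7 within 100 kb, and Foxb1 had 64, where it had 0, which puts both near the background, since the median within 500 kb was 60 over protein-coding genes and 67 in the Sox and Fox genes. Sox3 had 1, Sox17 had 9, Foxi1 had 21, Foxo4 had 24, and Sox1 had 28. The neighbours Foxf1, Foxc2 and Foxl1 had 113, 112 and 111, Foxc1 had 106, and Foxq1 and Foxf2 had 101 each, with many of these sites shared. Sox10 had 126 and Foxp1 had 147. The wider window was chosen after the data were seen, and windows of neighbouring genes overlap.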
